A study of Mus musculus with 2 samples.

Results

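The miR-200 family consists of 5 mouse microRNA genes, Mir200a, Mir200b, Mir200c, Mir141 and Mir429, and it was described here together with Mir203 and Mir205, the other textbook microRNAs of epithelia. The 7 genes were taken by symbol from the 2202 microRNA genes of the deposited tables, and all 7 had a row. Small RNA had been sequenced from the hearts of B6CASTF1/J females at 2 months of age, the first-generation hybrids of C57BL/6J and CAST/EiJ, with no treatment or genotype contrast in the labels. The single group holds 2 libraries, numbered as biological replicates 1 and 2 and as different females. The labels give a single donor for both, and that the libraries stem from different animals was read from the numbering alone.

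MicroRNAs are short RNAs that guide silencing proteins to messenger RNAs, which they recognise mainly through the seed, bases 2 to 8 of the mature strand. The miR-200 family is known for holding cells in the epithelial state. Its members repress Zeb1 and Zeb2, the transcription factors that switch off E-cadherin during the epithelial to mesenchymal transition, and those factors in turn repress the miR-200 genes. Mir203 is known from skin, where it limits the stem cell factor p63 as keratinocytes differentiate, and Mir205 from the basal layers of stratified and glandular epithelia. Heart tissue is built mainly of muscle, endothelial, stromal and blood cells, and its surface carries a thin mesothelial layer, the epicardium.

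The mature strands show how the 7 genes relate. They are given as RefSeq lists them for GRCm38.p6, 5′ to 3′, with the seed in capitals, because the seed sets the targets and splits the set into 4 groups. For each gene the arm printed is the textbook guide strand, since the deposited counts are per gene and do not separate the arms.
Mir200b: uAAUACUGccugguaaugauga
Mir200c: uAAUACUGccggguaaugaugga
Mir429: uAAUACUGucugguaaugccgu
Mir200a: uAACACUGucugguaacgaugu
Mir141: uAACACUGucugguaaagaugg
Mir203: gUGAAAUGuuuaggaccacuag
Mir205: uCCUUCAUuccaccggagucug
Mir200b, Mir200c and Mir429 share the seed AAUACUG, and Mir200a and Mir141 share AACACUG. In the RefSeq table, which is not complete, no gene outside the set had a mature strand with any of these 4 seeds. Counted from 1 at the 5′ end, Mir200b differs from Mir200c within the 22 aligned bases by U11G and A22G, and Mir200a differs from Mir141 by C17A and U22G. Mir200a and Mir141 share bases 1 to 16 without a break, the longest run between any pair of the set, and Mir200b and Mir200c share bases 1 to 10. None of the 7 hairpins shares a stretch of 20 bases with a microRNA hairpin at another locus.

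The genes lie at 4 loci in mm10. Mir200b (chromosome 4, 156055681 to 156055750), Mir200a (156054896 to 156054985) and Mir429 (156053905 to 156053987) follow each other on the minus strand within 1846 bases. All 3 lie in introns of Ttll10, a gene of the tubulin tyrosine ligase-like family, and within the noncoding transcript Gm13648, where Mir429 overlaps an exon. Mir200c (chromosome 6, 124718322 to 124718390) and Mir141 (124717914 to 124717985) lie on the minus strand with 336 bases between them, in an intron of the noncoding transcript Gm15884, and Mir141 also overlaps an exon of the locus Gm29008. The nearest coding gene is Phb2, a prohibitin gene on the opposite strand, 1372 bases from Mir200c. Mir203 (chromosome 12, 112130880 to 112130955, plus strand) lies between genes, 3321 bases from Aspg, and Mir205 (chromosome 1, 193507463 to 193507530, minus strand) lies in an exon of the long noncoding RNA 4631405K08Rik. The hairpins of the 3 genes on which the results turn most are shown with both mature arms in capitals, again from RefSeq.
Mir200c, chr6:124718322-124718390, minus strand: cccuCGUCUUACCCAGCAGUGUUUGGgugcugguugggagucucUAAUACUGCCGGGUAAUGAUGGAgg
Mir141, chr6:124717914-124717985, minus strand: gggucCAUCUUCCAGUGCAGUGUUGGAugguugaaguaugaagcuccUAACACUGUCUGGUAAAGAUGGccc
Mir203, chr12:112130880-112130955, plus strand: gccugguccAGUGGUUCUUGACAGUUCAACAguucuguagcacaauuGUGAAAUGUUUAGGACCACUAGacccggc
The arms that carry the seeds are the 3′ arms of all 3 hairpins.

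Replicate 1 held 2424441 reads on the own strand of microRNA genes and replicate 2 held 2770301. Values are CPM, counts scaled so that the microRNA genes of a library share the same total, and 10 counts stood for 4.12 CPM in replicate 1 and 3.61 CPM in replicate 2, and a count of 0 allowed up to 1.24 CPM and 1.08 CPM. Intervals and limits cover counting error only. Reads mapped to several places, 49.5% of replicate 1 and 42.7% of replicate 2, had been counted for no gene. Of the myosin-encoded markers of heart muscle, Mir208a had 1542 CPM in replicate 1 and 5865 CPM in replicate 2, Mir499 had 4354 and 2641 CPM, and Mir208b had 84.1 and 39.3 CPM. The red cell gene Mir451a differed widely, with 7816 CPM in replicate 1 against 86827 CPM in replicate 2. In bulk tissue, fewer cells of a type and less RNA per cell cannot be told apart.

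The set was present at low level, and Mir200c and Mir203 carried most of it. The 7 genes together had 821 reads in replicate 1, 0.0339% of counts (exact Clopper-Pearson interval 0.0316 to 0.0363), and 1021 reads in replicate 2, 0.0369% (0.0346 to 0.0392). Their mean share was 0.0354% ± 0.00212 (SD, n = 2). Detection was set at 10 or more counts in each library, which 5 of the 7 genes reached, against 13.9% of all 2202 genes and 21% of the 1126 genes that, like these 7, share no stretch of 20 bases with another hairpin. Mir429, with 25 counts in replicate 1, was the lowest gene inside this rule, and Mir200a, with 8, the highest outside it. The 5 miR-200 genes made up 0.0199% of replicate 1 and 0.0317% of replicate 2, a mean of 0.0258% ± 0.00835 (n = 2).

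Mir200c, from the chromosome 6 cluster, was the most abundant of the set. It had 385 counts or 159 CPM in replicate 1 (143 to 175 by the exact interval) and 744 counts or 269 CPM in replicate 2 (250 to 289), a mean of 214 ± 77.6 CPM (SD, n = 2). It ranked 109 among the 2202 genes by mean CPM, above the median of 80.1 CPM over the 306 detected genes. It made up 46.9% of the set's reads in replicate 1 and 72.9% in replicate 2.

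Mir203 followed and was the most variable detected gene of the set relative to its mean. It had 337 counts or 139 CPM in replicate 1 (125 to 155) and 142 counts or 51.3 CPM in replicate 2 (43.2 to 60.4), a mean of 95.1 ± 62.0 CPM, rank 147. Its share of the set's reads was 41.0% in replicate 1 and 13.9% in replicate 2. Together, Mir200c and Mir203 held 87.9% of the set's reads in replicate 1 and 86.8% in replicate 2.

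The other miR-200 genes lay more than 10-fold below Mir200c. Mir200b had 35 counts (14.4 CPM) in replicate 1 and 52 (18.8 CPM) in replicate 2, a mean of 16.6 ± 3.06 CPM. Mir141, the cluster partner of Mir200c, had 30 counts (12.4 CPM) and 36 counts (13.0 CPM), a mean of 12.7 ± 0.439 CPM. Mir429 had 25 counts (10.3 CPM) and 32 counts (11.6 CPM), a mean of 10.9 ± 0.876 CPM. These 3 genes ranked 231, 251 and 258, in the lower part of the detected genes. Their order was the same in both libraries, although the exact intervals of their levels overlapped within each library.

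Mir200a and Mir205 were not detected by the rule. Mir200a had 8 counts in replicate 1, or 3.30 CPM (1.42 to 6.50), and 15 counts in replicate 2, or 5.41 CPM (3.03 to 8.93). Its reads exceeded the limit of a count of 0 in both libraries, but it lay below its cluster partners Mir200b and Mir429. Mir205 had 1 count in replicate 1, which by its exact interval allows up to 2.30 CPM, and 0 in replicate 2, which allows up to 1.33 CPM by the same interval. A read of a microRNA covers the whole mature strand, so counts were compared between genes without a length term. Per 100 bases of hairpin, which run from 68 to 90 bases in length, the order of the 7 genes was the same. Whether the libraries captured the different mature sequences equally well was not tested. Comparisons between genes are therefore of read counts and need not equal ratios of molecules.

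**Figure D1:**
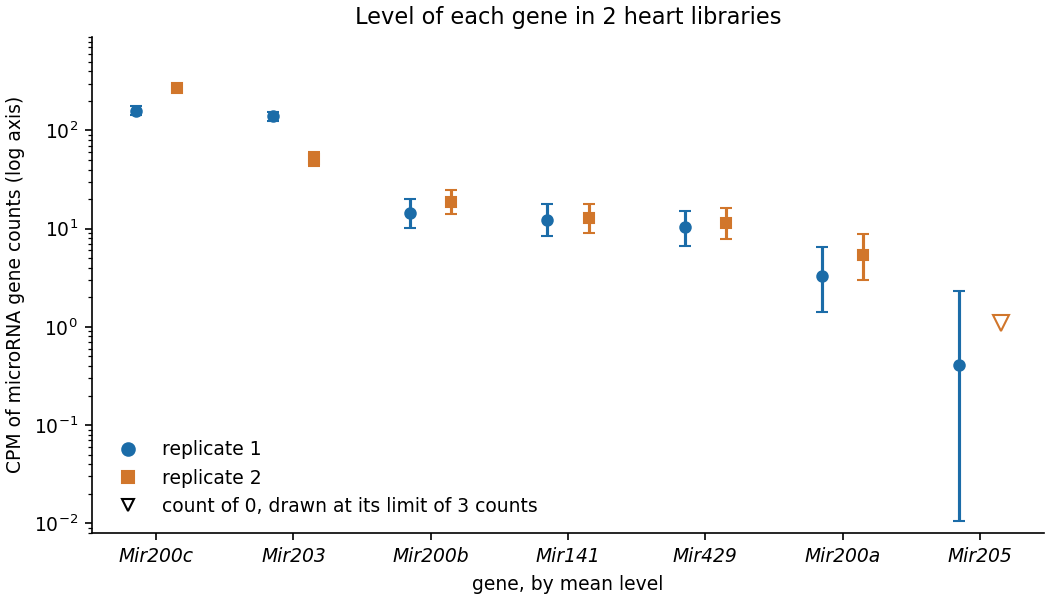
CPM (log axis) of the 7 genes in replicate 1 (circles) and replicate 2 (squares), with exact 95% counting intervals. Mir200c and Mir203 lie above 50 CPM in both libraries, the other miR-200 genes lie below 20 CPM, and Mir205 had 1 count in replicate 1 and 0 counts in replicate 2, drawn as an open triangle at the 1.08 CPM that 3 counts stand for.

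Few reads at these genes came from the opposite strand. The opposite-strand column held 0 counts for the 7 genes in replicate 1. In replicate 2 it held 2 counts at Mir203, where RefSeq places the mature strands of miR-203b on the other strand, and 2 at Mir205. For Mir205 these reads in replicate 2 outnumber its own-strand reads, and all are within the limit of 3 counts. For each miR-200 gene the count made without regard to strand equalled the own-strand count in both libraries.

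Genes of the same cluster were counted at unequal levels, most clearly on chromosome 6. Mir200c had 12.8 reads for each read of Mir141 in replicate 1 (8.84 to 19.3 by the exact interval) and 20.7 in replicate 2 (14.8 to 29.7), with a geometric mean of 16.3. On chromosome 4, Mir200b exceeded Mir200a 4.38-fold in replicate 1 (1.99 to 10.9) and 3.47-fold in replicate 2 (1.92 to 6.63). Mir429 exceeded Mir200a 3.13-fold (1.37 to 8.02) and 2.13-fold (1.12 to 4.24). Mir200b and Mir429 were closest, with ratios of 1.40 (0.814 to 2.44) and 1.63 (1.03 to 2.61), the first of which does not differ from equal counts beyond counting error. In both clusters the gene with the AACACUG seed was the lowest. For each of these pairs the intervals of the 2 libraries overlapped.

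Among all neighbouring pairs of detected genes, this imbalance was not extreme, but those pairs are not fully alike to the set. They include genes that share a 20-base stretch with another hairpin, such as Mir194-1 and Mir194-2, which none of the 7 genes does. Reads mapped to several places had been counted for no gene. How far this widened the differences within those pairs was not tested. Across the table, 88 pairs of neighbouring detected genes lay within 10000 bases on the same strand, and the median pair differed 4.78-fold. For Mir141 and Mir200c 23 of the 88 pairs differed more, and for Mir429 and Mir200b 72 did. The ratio of the median pair moved 1.54-fold between the libraries, against 1.61-fold for Mir200c to Mir141 and 1.16-fold for Mir200b to Mir429. Mir200a was under the detection rule and forms no pair here.

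By seed, the AAUACUG genes outnumbered the AACACUG genes, mainly through Mir200c. Mir200b, Mir200c and Mir429 summed to 445 reads or 184 CPM in replicate 1 and 828 reads or 299 CPM in replicate 2. Mir200a and Mir141 summed to 38 reads or 15.7 CPM and 51 reads or 18.4 CPM. The ratio of the seed groups was 11.7 in replicate 1 (8.40 to 16.8) and 16.2 in replicate 2 (12.2 to 22.0). Mir200c held 385 of the AAUACUG reads in replicate 1 and 744 in replicate 2, so this ratio largely reflects the level of that gene. By locus, the chromosome 6 cluster had 415 and 780 reads and the chromosome 4 cluster 68 and 99, a ratio of 6.10 (4.71 to 8.01) in replicate 1 and 7.88 (6.39 to 9.81) in replicate 2.

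**Figure D2:**
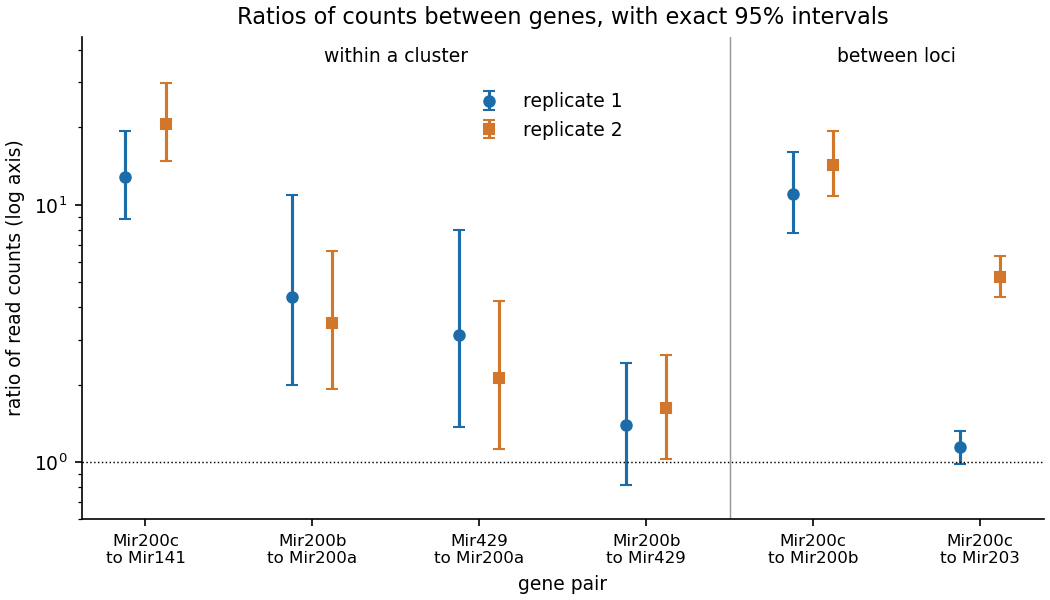
Ratios of read counts (log axis) for 4 pairs within a cluster and 2 pairs between loci, in replicate 1 (circles) and replicate 2 (squares), with exact 95% intervals; the dotted line marks equal counts. The intervals of the 2 libraries overlap for each pair but Mir200c to Mir203, where the ratio was 1.14 in replicate 1 and 5.24 in replicate 2.

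The libraries differed in Mir200c and in Mir203, in opposite directions. Mir200c was lower in replicate 1, with a fold of 0.591 over replicate 2 (exact interval 0.521 to 0.670). It passed the two-sided exact binomial test with Benjamini-Hochberg adjustment over 306 detected genes (adjusted p = 4.7e-17). Mir203 was 2.71-fold higher in replicate 1 (2.22 to 3.32; adjusted p = 5.8e-25 by the same exact test). The ratio of Mir200c to Mir203 was thus 1.14 in replicate 1 (0.984 to 1.33) and 5.24 in replicate 2 (4.37 to 6.31), and the intervals did not overlap. These tests compare 2 libraries beyond counting error and no conditions, and the spread may be partly technical.

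Of the 5 detected genes of the set 2 passed, where 61.1% of the 306 detected genes did. Counting also a fold of at least 1.5, 1 of the 5 was higher in replicate 1, where 25.5% of all detected genes were, and 1 was lower, where 11.1% were. Mir200b had a fold of 0.769 (0.486 to 1.20), Mir429 0.893 (0.507 to 1.55) and Mir141 0.952 (0.566 to 1.59), with adjusted p of 0.32, 0.77 and 0.95 by the exact binomial test. Each of these 3 intervals includes 0.591, the fold of Mir200c, so a difference of that size is not excluded for these genes.

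Each of the 5 miR-200 genes had a lower CPM in replicate 1, though 1 of the 4 tested passed and Mir200a was under the detection rule. Of the 306 detected genes, 186 had a higher CPM in replicate 1. Genes of the same cluster need not vary independently. The log2 ratio of replicate 1 over replicate 2 was -0.76 for Mir200c, -0.38 for Mir200b, -0.16 for Mir429 and -0.07 for Mir141, against a median of 0.19 over the 306 detected genes. For Mir203 it was 1.44. The sum of the miR-200 genes gave a fold of 0.628 (0.561 to 0.702), the sum of all 7 genes 0.919 (0.837 to 1.01). Mir200c held 385 of the 483 miR-200 reads in replicate 1 and 744 of 879 in replicate 2. The fold of the miR-200 sum thus largely restates that of Mir200c. With TMM factors, which move the median gene to 0.02, the fold was 0.524 for Mir200c and 2.40 for Mir203, and the directions of all 5 miR-200 genes were kept. With totals that leave out the red cell genes Mir451a and Mir144, chosen after their difference was seen, the folds were 0.541 and 2.48.

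**Figure D3:**
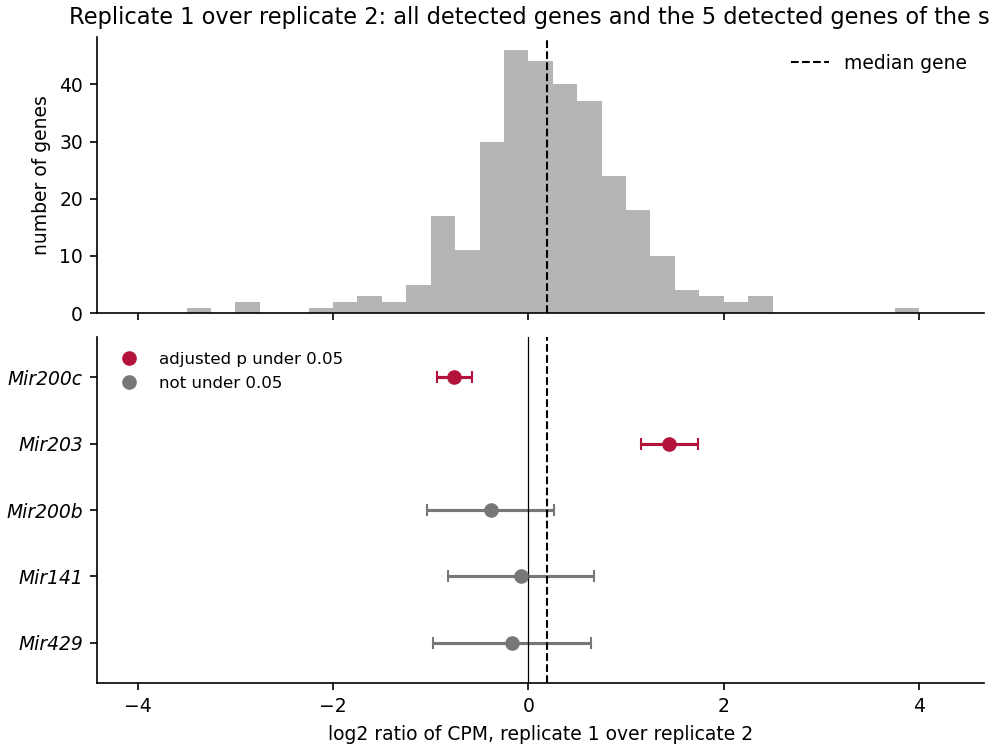
Log2 ratio of CPM in replicate 1 over replicate 2: above, the number of genes per bin for the 306 detected genes, with the median of 0.19 dashed; below, the 5 detected genes of the set with exact 95% intervals, red where the adjusted p was under 0.05. Mir200c (-0.76) and Mir203 (1.44) lie on opposite sides of the median, and the intervals of Mir200b, Mir141 and Mir429 include 0.

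**Figure D4:**
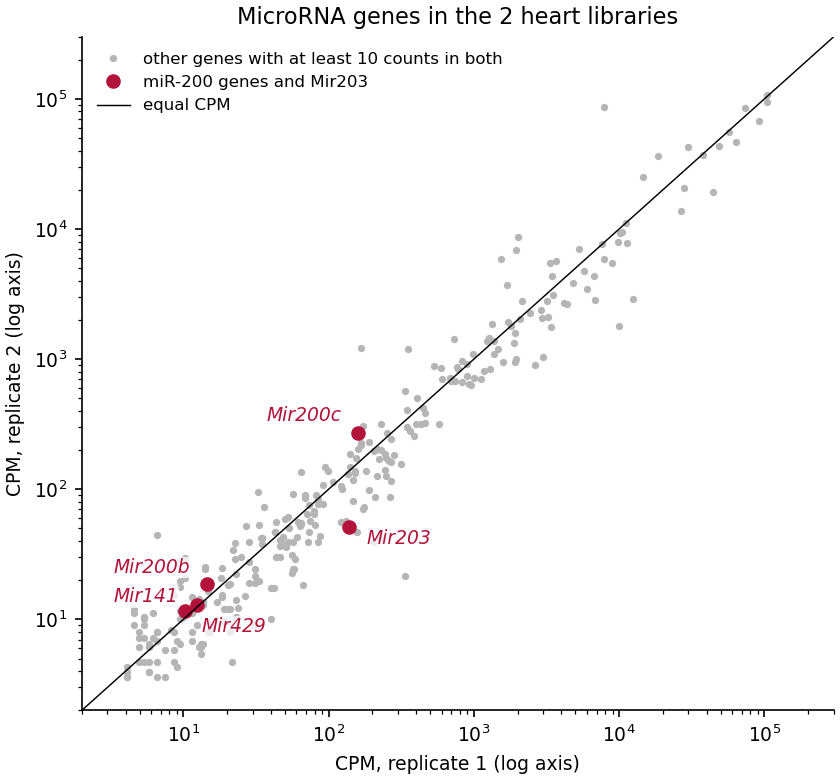
CPM in replicate 1 (horizontal, log axis) and replicate 2 (vertical, log axis) for the 306 detected genes, with the 5 detected genes of the set in red and the line of equal CPM. Mir200c and Mir203 sit in the middle of the range on either side of the line, and Mir200b, Mir141 and Mir429 near its lower end.

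A list of 14 other microRNAs known from epithelia held more reads than the set, but only through Mir31. It had 2936 counts in replicate 1, 0.121% of the total (0.117 to 0.126), and 2367 in replicate 2, 0.0854% (0.0820 to 0.0890), and 10 of its 14 genes were detected. The median of the mean CPM was 13.3 over the 14 listed genes and 12.7 over the 7 genes of the set, against 0 over all 2202 genes. Mir31, known from keratinocytes but expressed in other cells as well, led with 927 CPM in replicate 1 and 647 CPM in replicate 2. It held 2247 of the list's counts in replicate 1 and 1792 in replicate 2. Without Mir31 the list had fewer reads than the set in both libraries.

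MicroRNAs of gut and kidney epithelium had mean levels below that of Mir203, but in replicate 2 Mir215 lay above Mir203, which had 51.3 CPM there. Mir215 had 74.2 and 57.0 CPM in replicates 1 and 2, Mir192 28.5 and 27.4 CPM, and Mir194-2 31.3 and 19.1 CPM. Mir194-1 had 9.90 and 10.5 CPM, and both Mir194 genes share a 20-base stretch with another hairpin, so their levels are uncertain. Of the microRNAs of ciliated cells, Mir449a had 52.4 and 39.0 CPM and Mir34c 56.1 and 22.7 CPM, while Mir34b had 3 and 2 counts and Mir449b and Mir449c had 0 in both libraries. The endocrine and epithelial Mir375 had 51 and 33 counts. In the cluster of sensory epithelia, Mir183 had 4.54 and 11.2 CPM, Mir182 had 4.95 and 7.94 CPM, and Mir96 had 0 counts in both.

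Between the libraries, 6 of the 10 detected genes of this list were higher and 1 lower in replicate 1 by the exact binomial test, and 3 did not pass, where 61.1% of all detected genes passed in either direction. The higher genes were Mir31, Mir215, Mir449a, Mir34c, Mir194-2 and Mir375, and the lower gene was Mir183. With TMM factors 2 were higher, Mir31 and Mir34c, and 1 was lower, so the count of higher genes rests on the scaling. The median log2 ratio was 0.40 over the 10 genes, or 0.23 with TMM factors, against 0.19 and 0.02 over all 306 genes.

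**Figure D5:**
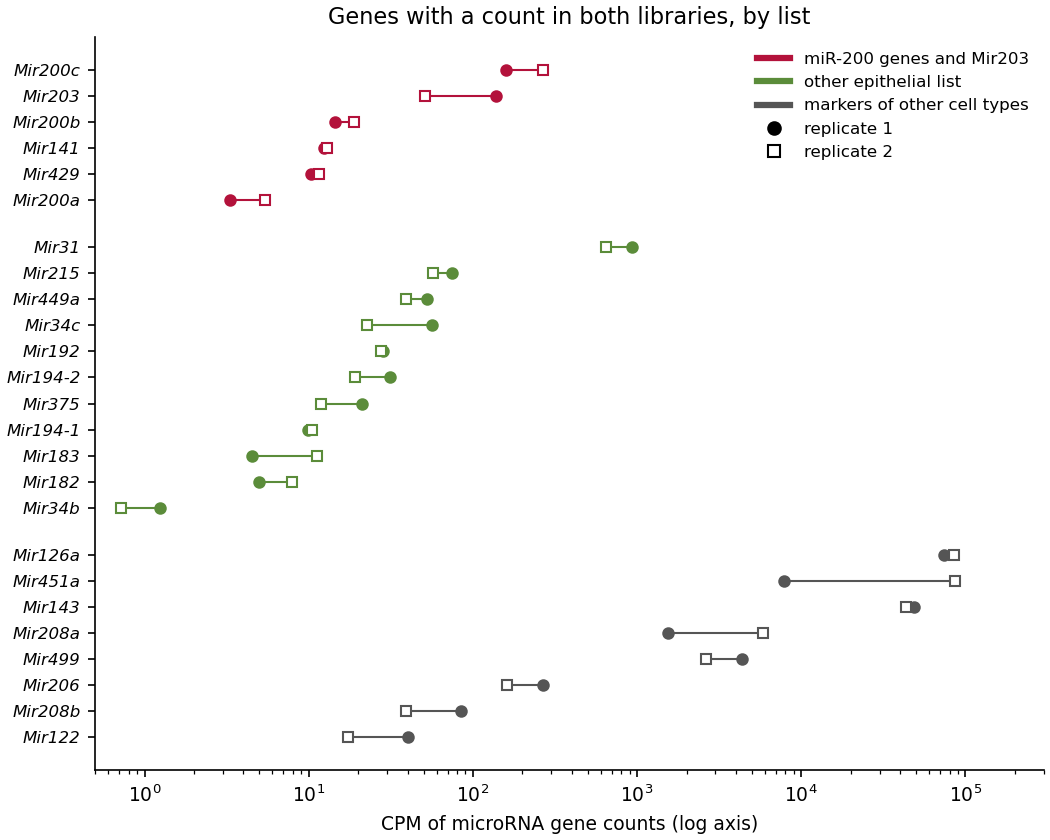
CPM (log axis) in replicate 1 (filled circles) and replicate 2 (open squares) of genes with a count in both libraries, for the set (red), the list of other epithelial microRNAs (green) and markers of other cell types (grey). Mir205, Mir96, Mir449b and Mir449c had a count of 0 in at least 1 library and are not drawn. Mir200c lies far below the endothelial gene Mir126a. Its mean is near that of the skeletal muscle gene Mir206, which lies above Mir200c in replicate 1 and below it in replicate 2.

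The lead markers of endothelium, smooth muscle, heart muscle and leukocytes lay above the set, but not every marker did. Markers of stromal cells were not compared. The endothelial gene Mir126a, at 79461 ± 8214 CPM (n = 2), stood 372-fold above Mir200c by mean CPM, and the smooth muscle gene Mir143, at 46119 ± 3672 CPM, 216-fold above it. The heart muscle gene Mir208a, at 3704 ± 3057 CPM, stood 17.3-fold above Mir200c by mean CPM. In replicate 1 Mir208a, at 1542 CPM, lay below Mir499 of the same list, at 4354 CPM. Mir208b of that list, at 61.7 ± 31.7 CPM, lay below Mir200c and Mir203. Of the leukocyte list, Mir150 (1616 ± 398 CPM) and Mir142 (1069 ± 324 CPM) lay above Mir200c, and the myeloid Mir223, at 122 ± 117 CPM, lay below its mean. By library, Mir223 was above Mir200c in replicate 1, at 205 CPM, and below it in replicate 2, at 39.0 CPM. Mir206, a microRNA of skeletal muscle, had 268 CPM in replicate 1 and 161 CPM in replicate 2. Its mean of 215 ± 75.7 CPM lay within the spread of Mir200c, but it was above Mir200c in replicate 1 and below it in replicate 2. Mir122, a microRNA of liver cells, had 40.4 and 17.3 CPM, below Mir203 in both libraries.

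With a single group of 2 libraries, likeness to other genes could only be measured as the distance between log2 CPM pairs. The genes nearest to Mir200c were Mir339 (171 CPM in replicate 1 and 308 in replicate 2, distance 0.22), Mir574 (0.25) and Mir374b (0.31). Nearest to Mir203 was Mir148b, at 131 and 56.7 CPM (0.17), followed by Mir101a (0.22) and Mir547 (0.23). Mir101a shares a 20-base stretch with another hairpin. For Mir200b the nearest was Mir300 (0.09), for Mir141 Mir370 (0.10) and for Mir429 Mir667 (0.07). No gene of the set was among the 3 nearest to another.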

How the data were processed

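The values are raw counts of reads per microRNA gene as the authors deposited them, in 3 columns identified from the values: strand ignored, own strand and opposite strand. With strand ignored, reads over genes that overlap on opposite strands belong to no gene, so that column holds 0 for Mir451a and Mir142. Per the text deposited with the tables, reads were placed on mm10 with annotation M21, and the sources used here do not give the aligner, counter or trimming. Lines that name no gene, 70.0% of replicate 1 and 65.3% of replicate 2, were kept out of totals and tests. All 2202 identifiers matched GENCODE M21, and RefSeq (GRCm38.p6) gave hairpins and 14 mature strands for the 7 genes.

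Shares and ratios carry 95% exact Clopper-Pearson intervals. Replicate 1 was compared with replicate 2 per gene by an exact binomial test on both sides, conditional on the totals, with Benjamini-Hochberg adjustment at 0.05 over 306 genes, checked on simulated counts. With 1 group, edgeR 4.0.16 (TMM) and DESeq2 1.42.0 gave scaling factors only. Members, lists and tests were chosen with earlier results of these data known. The text names the 7 genes, detected genes of the epithelial list, lead genes of the muscle, endothelium and liver marker lists and the genes nearest by log2 CPM. Outside that rule, chosen after their values were seen, are Mir34b, Mir96, Mir449b, Mir449c, Mir451a, Mir144, Mir499, Mir208b, Mir150, Mir142 and Mir223. Alternatives were other scalings, denominators, count minimums, strand-ignored counts, thinning, hairpin length and each library alone. Python 3.11.15, scipy 1.17.1 and R 4.3.3 were used.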

Additional observations from a re-analysis of the deposited data

How the results depend on the processing

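The order of the 7 genes, and the direction and call of each tested gene of the set between the libraries, held under the alternatives run for them. Over 6 alternatives the fold of replicate 1 over replicate 2 ran from 0.513 to 0.597 for Mir200c and from 2.35 to 2.55 for Mir203. The split of all genes with at least a 1.5-fold difference was 78 higher and 34 lower in replicate 1, and 49 and 47 with TMM factors, so the table's direction rests on the scaling. With at least 50 counts asked in both libraries, 2 genes of the set and 6 of the other epithelial list were detected, since the rest have fewer counts. The share of the 7 genes was 0.0476% of strand-ignored counts, which lack abundant genes such as Mir126a and Mir451a, 0.0115% of all reads of a library and 0.0384% per 100 bases of hairpin, since the denominators differ. The share of the 5 miR-200 genes was 0.0350% of strand-ignored counts and 0.00849% of all reads. The ratio of Mir200b to Mir200a was 5.01 per 100 bases, as the Mir200a hairpin is longer. With each library alone the set's share ran from 0.0339% to 0.0369% and the miR-200 share from 0.0199% to 0.0317%. No paired analysis was possible because the labels give a single group. Depth limits Mir200a and Mir205, with at most 15 counts in a library.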
